A study of Mus musculus with 10 samples.

Results

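The cells described here are fibroblasts of the mouse axillary lymph node that carry RNA of Mgp together with Cilp, Ccn5, Itgbl1 or Fhl2. A cell entered the fibroblast gate with at least 5 UMIs (unique molecular identifiers, each tagging 1 captured RNA molecule) summed over Col1a1, Col1a2, Col3a1 and Dcn, and with no UMI of the leukocyte gene Ptprc or of the endothelial genes Pecam1 and Cdh5. Members then held fewer than 2 UMIs of Ccl19, at least 3 UMIs summed over Cilp, Ccn5, Itgbl1 and Fhl2, and at least 3 of Mgp. The members were thus chosen by their measured UMIs of these genes, and these values are a description. The rule found 55 cells among 1225 in the fibroblast gate and 7766 cells with a called condition. The stromal library held 44 of them and the myeloid and stromal library 11.

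All mice were wild-type BALB/c females aged 8 weeks. Naive mice were untreated. Tumour mice received 4T1 or 67NR breast cancer cells orthotopically, in mammary pad 4, and were taken at 18 days with tumours of 500 mm3. Both lines are mouse mammary carcinomas of common origin. Tumours of 4T1 metastasise, and those of 67NR do not. LPS, bacterial lipopolysaccharide, was given under the skin 72 hours before sampling. At least 3 mice stood behind each condition per the series' design text, but nothing ties a cell to a mouse, and nothing says that the libraries came from separate mice. The stromal library pooled 4T1, 67NR, LPS and naive cells under hashtag antibodies, and the myeloid and stromal library pooled 4T1, 67NR and naive.

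Stromal cells of lymph nodes include Ccl19-expressing reticular cells of the T-cell zone, and Dpp4 and Pi16 fibroblasts of the adventitia around vessels and under the capsule. Mgp encodes matrix Gla protein, a small secreted protein that depends on vitamin K and inhibits calcification of soft tissue. Cilp encodes a secreted protein first found in the intermediate layer of cartilage, Ccn5 a member of the CCN family of matricellular proteins, Itgbl1 a secreted protein resembling integrin beta chains, and Fhl2 a LIM-domain protein that joins transcription and adhesion complexes. On GRCm38, to which mm10 corresponds, GENCODE places Mgp at chr6:136872435-136875823, Cilp at chr9:65265180-65280605, Ccn5 at chr2:163820861-163833146, Itgbl1 at chr14:123659971-123975618 and Fhl2 at chr1:43123074-43196984, all as protein-coding genes.

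The stromal library held 36622159 gene UMIs over 3507 barcodes and the myeloid and stromal library 94930947 over 7823. Members had a median of 15396 UMIs in the stromal and 17060 in the myeloid and stromal library, beside 14642.5 and 13957.5 in the other fibroblasts. Their median mitochondrial share was 1.62% and 1.9%, beside 1.84% and 2.11%. Of the cells with a condition, 3 barcodes occurred in both libraries, and 0 of these were members. A second hashtag reached 10 counts in all 55 members, as in 2348 of 2353 and 5406 of 5413 cells, with a median of 56 and 57 counts beside 1569 and 487 for the called one.

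Members were found in every condition but were few in naive and 4T1 nodes. In the stromal library they made up 24 of 355 fibroblast-gate cells of 67NR (6.76%, exact 95% interval 4.38 to 9.89), 15 of 222 of LPS (6.76%, 3.83 to 10.9), 4 of 113 of 4T1 (3.54%, 0.97 to 8.82) and 1 of 128 of naive (0.78%, 0.02 to 4.28). In the myeloid and stromal library they were 10 of 182 of 67NR (5.49%, 2.67 to 9.87), 1 of 106 of naive (0.94%, 0.02 to 5.14) and 0 of 119 of 4T1 (0%, 0 to 3.05), where a count of 0 by the limit of 3 counts allows a share of up to 2.52%. The 67NR share was thus the highest of 3 conditions in the myeloid and stromal library and level with LPS in the stromal one, and its 95% interval overlapped that of 4T1 in both libraries and the naive one in the myeloid and stromal library. These Clopper-Pearson intervals cover counting error only, and with 1 sum per library and condition no test was made.

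**Figure D1:**
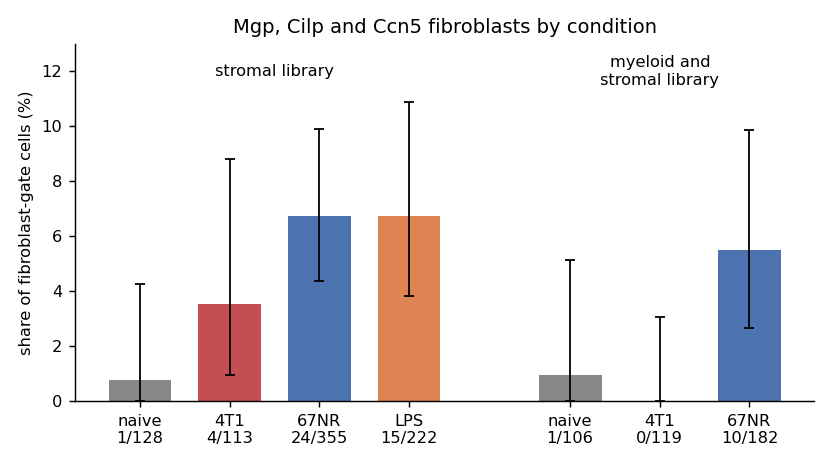
Share of fibroblast-gate cells that met the rule (vertical axis, percent) for each condition in each library, with exact 95% binomial intervals as error bars and members over gate cells under each bar. The 67NR and LPS bars stand at 5.49 to 6.76%, the naive bars below 1%, and the 4T1 bar of the myeloid and stromal library at 0.

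The share depended on how deeply each cell was read. After every gate cell was thinned to 2000 UMIs, 10 of 349 cells of 67NR (2.87%) and 1 of 222 of LPS (0.45%) met the rule in the stromal library. So did 1 of 113 of 4T1 (0.88%) and 1 of 128 of naive (0.78%), so that LPS no longer stood above naive. In the other library 1 of 179 cells of 67NR (0.56%), 0 of 117 of 4T1 and 0 of 102 of naive met it. At 8000 UMIs the stromal shares were 6.01% in 67NR, 4.95% in LPS, 2.04% in 4T1 and 0.93% in naive. Mgp by itself gave another order of the conditions. A minimum of 3 Mgp UMIs alone was met by 13.5% of 67NR, 22.1% of LPS, 15.9% of 4T1 and 16.4% of naive cells in the stromal library, and by 11%, 2.52% and 10.4% of 67NR, 4T1 and naive cells in the other. The sum of the 4 other markers alone was met by 8.73%, 9.46%, 3.54% and 0.78%, and by 8.24%, 2.52% and 4.72%.

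The members were not uniform. Mgp, the marker present in all of them by the rule, ranged from 4 to 1128 UMIs per cell with a median of 34, and 1 cell held 17.8% of all 6338 Mgp UMIs. By condition the lowest, median and highest Mgp values were 5, 37.5 and 1128 UMIs in 67NR and 4, 30 and 260 in LPS. The 4 cells of 4T1 held 67, 31, 30 and 6 UMIs and the 2 naive cells 119 and 28. The ranges of all conditions overlapped, and the cells above 260 UMIs were all of 67NR, the condition of 34 of the 55 members.

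Cilp was the most widely shared of the other markers, with a UMI in 42 of 55 members, followed by Fhl2 in 31, Itgbl1 in 30 and Ccn5 in 24. Ccn5, for which the cells are named, thus had no UMI in 31 of the 55. Exactly 1 of the 4 genes was seen in 18 cells, 2 in 15, 3 in 9 and all 4 in 13, and 14 cells entered with Cilp at 3 or more and the other 3 genes at 0. The naive cell of the stromal library held 9 Ccn5 UMIs, 5 of Fhl2, 3 of Itgbl1 and 1 of Cilp, while the other naive cell was in by 3 Fhl2 UMIs alone. At the threshold, 7 members had a marker sum of exactly 3 and 14 gate cells were kept out with a sum of 2, while 0 members had exactly 3 Mgp UMIs and 4 cells were kept out with 2. A further 25 cells had the marker sum without the Mgp, 115 the Mgp without the marker sum, and 21 were kept out by Ccl19.

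**Figure D2:**
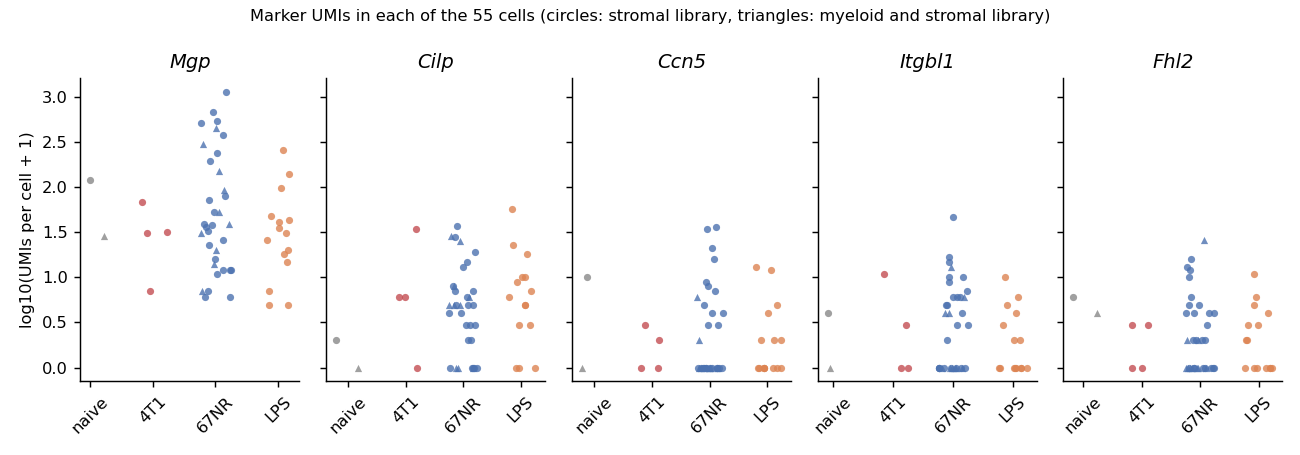
UMIs per cell on a scale of log10(UMIs + 1) (vertical axis) of Mgp, Cilp, Ccn5, Itgbl1 and Fhl2 in each of the 55 members, by condition (horizontal axis), with circles for the stromal and triangles for the myeloid and stromal library. Mgp spans 4 to 1128 UMIs, and many members sit at 0 for Ccn5, Itgbl1 or Fhl2.

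Background was read from cells that should lack these genes. Among 4538 cells with Ptprc, Mgp was seen in 1.81%, Fhl2 in 2.36%, Cilp in 0.309%, Itgbl1 in 0.154% and Ccn5 in 0.0441%, at a median depth of 10122.5 UMIs. Among the other fibroblasts the shares were 35.7%, 6.58%, 11.6%, 4.44% and 3.59% at 14568 UMIs. Thinned to 2000 UMIs, with 1 member, 14 other fibroblasts and 224 Ptprc cells too shallow to enter, Cilp was seen in 3.46% of other fibroblasts and 0.139% of Ptprc cells. Its share of 50% in members is set by the rule. Fhl2 was thus the marker with the highest share in leukocytes.

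A subset of the members stood out by its amount of Mgp. At a cut of 100 UMIs, set after the values were seen, 13 cells were Mgp-rich. Of these 13, 10 came from 67NR nodes, as did 24 of the other 42 members. All 4 further markers were present in 8 of these 13 and in 5 of the other 42. Of the other genes looked at after the fact, F3 (tissue factor, which starts coagulation) and Serpine2 (an inhibitor of thrombin) had a UMI in 13 of 13, against 33 and 22 of 42. Ccn2, a CCN family gene known as a target of TGF-beta and of the YAP coactivator, was seen in 12 of 13 against 17 of 42. Fmod, a small proteoglycan of tendon and other collagen-rich tissue, was seen in 6 of 13 against 0 of 42. The Mgp-rich cells had a median of 16378 UMIs and the others 15235.5.

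Across members, 7448 genes with a UMI in at least 20% of cells were ranked by how their share of UMIs followed that of Mgp. Among the highest were Cst3, a secreted cysteine protease inhibitor (Spearman rho 0.70), the proteoglycan gene Bgn (0.60) and Tmem59 (0.58). The mechanosensitive channel gene Piezo2 (0.58) had a UMI in 23 of the 55 cells. The total UMIs of a cell had a rho of -0.30 with Mgp. The most opposed genes were Cd55, an inhibitor of complement at the cell surface (-0.60), the scavenging chemokine receptor gene Ackr3 (-0.59), Sdk1 (-0.58), Csrp2 (-0.56), Gda (-0.56) and the fibronectin gene Fn1 (-0.55). These are descriptions over 55 cells that share 2 libraries, and no test was made.

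Adventitial genes were seen in members to differing extents. Pi16 was seen in 47 of 55 members (85.5%) beside 56.5% of other fibroblasts, and Dpp4, a cell-surface peptidase, in 18 (32.7%) beside 39.7%. Of the 55, 36 members held at least 3 UMIs of the pair. Both genes were also seen in Ptprc cells, Pi16 in 29.3% and Dpp4 in 25.8%. Smpd3, a sphingomyelinase gene, reached 3 UMIs in 9 members and Cxcl14 in 1.

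For levels against the other fibroblasts, UMIs were summed over the 3 groups with at least 10 members: 67NR and LPS of the stromal library (24 and 15 cells, 337261 and 271420 UMIs) and 67NR of the myeloid and stromal library (10 cells, 173500 UMIs). Values are CPM, a gene's UMIs divided by the sum's total and scaled to 1000000, compared as log2 ratios and given as mean ± SD over the 3 sums. They describe the cells and carry no test, since the same RNA chose them. Of 5198 genes with a mean of at least 30 CPM over members and others, 63 were more than 2-fold higher in members in all 3 sums (1.21%) and 84 more than 2-fold lower (1.62%). The rule's own genes account for 5 of the higher and 1 of the lower. The median over all genes was 0.00.

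The 25 genes with the highest ratio included the rule's 5 markers at 4.33 ± 0.89 for Mgp, 4.41 ± 0.46 for Cilp, 4.35 ± 2.12 for Ccn5, 4.95 ± 1.05 for Itgbl1 and 4.56 ± 0.34 for Fhl2. In the myeloid and stromal 67NR sum 1 cell held 25 of the 27 Fhl2 UMIs, and 1 cell 5 of the 6 Ccn5 UMIs. Of the 25 leading genes, 18 passed the minimum of 30 CPM, and 23 were more than 2-fold higher both against Ccl19 cells and against Dpp4 and Pi16 cells. Col8a1, a short-chain collagen gene of vessel walls and Descemet's membrane (chr16:57624258-57754737), had the highest ratio at 5.41 ± 1.26. Its level in members was 237 CPM in stromal 67NR, 25.8 in LPS and 519 in the other 67NR sum, against 10.6, 0.86 and 4.52 CPM in the other fibroblasts. It came from few cells: 10 of 24, 2 of 15 and 2 of 10 members had a UMI, and 1 cell held 90% of the 90 UMIs of the last sum.

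Ccn2 (chr10:24595442-24598683) was the next highest outside the rule's own genes at 4.58 ± 0.95, with 640, 55.3 and 478 CPM in members and 12.7, 3.74 and 26.4 in others. It was seen in 16 of 24, 6 of 15 and 6 of 10 members, and in 0 of the 4 members of 4T1. Outside the members it was not low everywhere, since the 119 gate cells of 4T1 in the myeloid and stromal library, which held 0 members, reached 66.8 CPM. Serpine2 stood at 4.28 ± 0.56, with 254 to 326 CPM in the 3 member sums against 25.2, 15 and 9.04 in others. In the LPS sum 1 cell held 39 of its 82 UMIs (47.6%).

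Further leading genes encode matrix and secreted proteins. They include Egflam (pikachurin, 4.18 ± 0.76), the collagen gene Col28a1 (4.07 ± 0.76), the axon guidance ligand Slit2 (3.80 ± 0.53), and Mfap4 of elastic fibres (3.29 ± 0.84). Others act in the cell or at its surface: Mical2, which oxidises actin (4.17 ± 1.66), the homeodomain cofactor Hopx (3.98 ± 0.47), the cell-cycle inhibitor Cdkn2b (3.94 ± 1.19), the heparan sulfate sulfotransferase Hs6st2 (3.77 ± 1.22), the thrombin receptor F2r (3.59 ± 1.30), the Notch target Heyl (2.99 ± 0.34) and Phlda3, a target of p53 (2.74 ± 0.56). Their levels were modest. Slit2 ranged from 65.2 to 507 CPM over the 3 sums and Heyl from 17.3 to 29.5. The Slit2 value rested on few cells. In the LPS sum 1 cell held 43 of its 49 UMIs, and in the myeloid and stromal 67NR sum 2 cells held 53 and 30 of its 88.

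**Figure D3:**
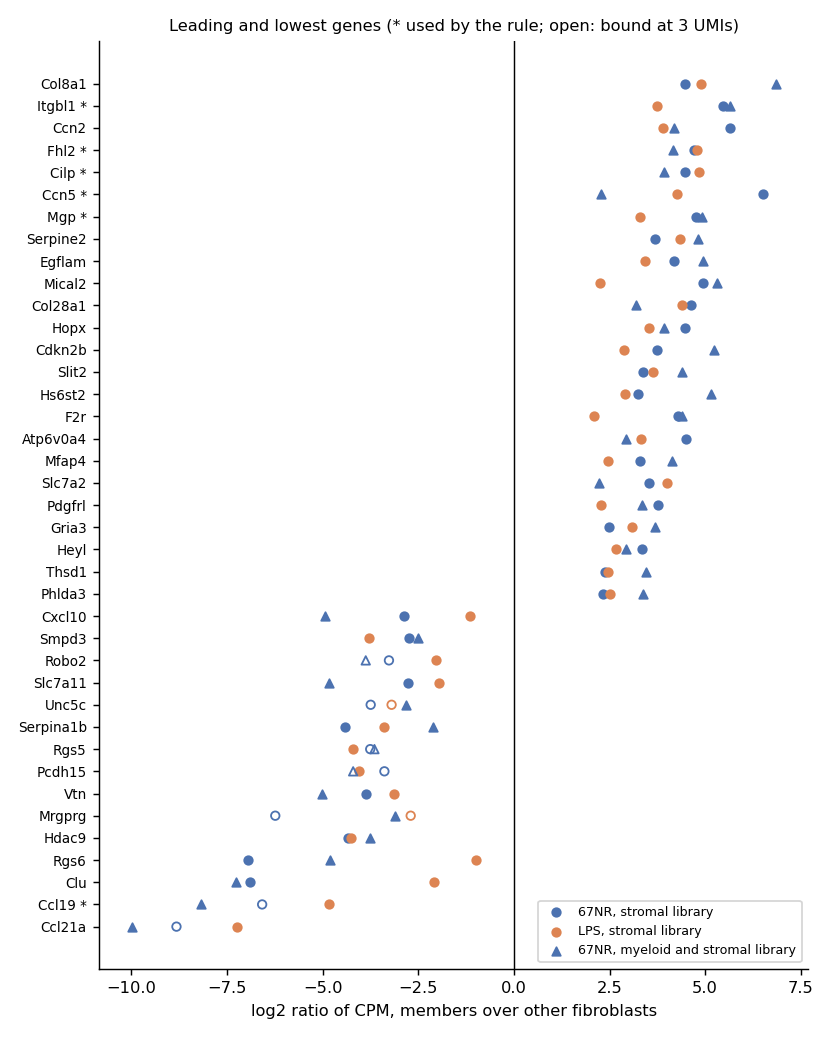
Log2 ratio of CPM, members over the other fibroblasts (horizontal axis), of the highest genes reported here and the 15 lowest (vertical axis) in each of the 3 sums, with open symbols where a count of 0 was set at 3 UMIs. The highest genes lie right of 0 in all 3 sums, from 2.74 for Phlda3 to 5.41 for Col8a1 on average, and Ccl21a, Clu and Rgs6 lie far left but closer to 0 in LPS than in 67NR.

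Among the 15 lowest genes, Ccl21a and Ccl19 are on the T-zone reticular list and Rgs5 is on the mural list. The rule kept cells with 2 or more Ccl19 UMIs out of the members but not out of the other fibroblasts. Such cells were 104 of 331, 64 of 207 and 79 of 172 other fibroblasts in the 3 sums. Low values of genes of those cells thus follow in part from the rule. Ccl21a, a ligand of Ccr7 with near-identical copies in the genome, was at 0, 7.37 and 5.76 CPM in members against 4016, 1118 and 5864 in others (-8.68 ± 1.38), and Ccl19, limited by the rule, at -6.53 ± 1.68. Clu (clusterin) stood at -5.41 ± 2.88, with 107 CPM in LPS members but 5.93 and 11.5 in those of 67NR. Hdac9 (-4.12 ± 0.32), Vtn (vitronectin, -4.01 ± 0.95), Pcdh15 (-3.87 ± 0.43), Rgs5 (-3.87 ± 0.30), Unc5c (-3.26 ± 0.46) and the Slit receptor Robo2 (-3.06 ± 0.94) were also low. Ccl21a, Ccl19, Pcdh15, Rgs5, Unc5c, Robo2 and Mrgprg had 0 UMIs in at least 1 sum, so that their means include bounds. Against Dpp4 and Pi16 cells the differences were other ones: Mrgprg stood at -4.88 and Smpd3 at -3.86, while Clu was at 0.53 and Hdac9 at 1.79.

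The general fibroblast genes Col1a1, Col1a2, Col3a1 and Dcn formed the gate that members and other fibroblasts both passed. All 14 pan-fibroblast genes were measured, 10 of them outside the gate, and 0 passed the 2-fold limit in either direction (list median 0.45). Over all genes 1.21% and 1.62% passed, so a list of this size could hold 0 calls without being special. Dcn stood at 0.35 ± 0.53, Col1a1 at 0.92 ± 0.06 and, outside the gate, Pdgfra at 0.35 ± 0.76. Matrix lists moved in parts. Of 8 measured small leucine-rich proteoglycans, 2 were higher, the TGF-beta-binding Bgn at 2.00 ± 0.20 (2701, 2015 and 2144 CPM against 578, 545 and 584) and Podn at 2.28 ± 0.39, and the list's median was 0.79. Of 18 elastic fibre genes 2 were higher, Mfap4 and Fbln2 (1.49 ± 0.16), with Eln at 0.25 ± 1.01 and a median of 0.33. Of 17 genes of fibrillar collagens and their assembly, 1 was higher, the procollagen protease enhancer Pcolce at 1.58 ± 0.39, with a median of 0.56. Of 9 matricellular genes 2 were higher, Sparcl1 (1.70 ± 0.19) and the calcium-binding Smoc2 (1.68 ± 0.84), with a median of 0.25. In the CCN family, 2 of 4 were higher, Ccn2 and the rule's own Ccn5, with Ccn1 at 0.04 ± 0.25 and Ccn3 at -0.96 ± 0.48 (list median 2.19).

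Of the 4 measured genes of calcification control 1 was higher, Mgp, with the vitamin K recycling gene Vkorc1 at 0.30 ± 0.38 and the vitamin K-dependent ligand gene Gas6 at 1.37 ± 0.83 (list median 0.84). Bglap and Ibsp, of bone, had 0 UMIs in members. Of 18 genes of tendon, ligament and cartilage, 4 were measured, Col12a1 at 0.61 ± 0.76, Tnc at -0.13 ± 0.73, Sox9 at -0.75 ± 0.34 and Clu. Of the unmeasured genes, Col11a1 was seen in 6 of 49 members and 0.141% of the other cells, Fmod in 6 and 10.1%, Prg4 in 4 and 4.93%, Tnmd in 3 and 0.282%, and Comp in 1 and 0.282%. Scx, Mkx, Acan, Cilp2 and Col2a1 were at 0 UMIs in members, and were at or near 0 in the other fibroblasts too.

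Against the lists of other node fibroblasts, members were lower for 2 of 12 adventitial genes, Dpp4 (-1.78 ± 0.37) and Sema3c (-1.50 ± 0.57), with Pi16 at -0.08 ± 0.87, Cd34 at 0.06 ± 0.21, Ly6a at 0.29 ± 0.23, Cd55 at -1.50 ± 0.80, Limch1 at -2.85 ± 1.93 and a list median of -0.35. They were lower for 3 of 9 T-zone reticular genes, Ccl19, Ccl21a and the BMP antagonist Grem1, which had 0 UMIs in members (list median -0.37). For this list the rule's limit on Ccl19 bears on the result, since the other fibroblasts include the Ccl19 cells. Members were higher for 3 of 8 genes of the Cxcl14 and Smoc2 list, the lipid-binding Apod (2.41 ± 0.80, at 2986, 2649 and 1124 CPM), Col15a1 (1.74 ± 0.54) and Smoc2, while Cxcl14 itself was seen in 1 member of these sums (list median 1.40). Of the mural list, 0 of 5 were higher and 1 was lower, Rgs5, and Myh11, Cspg4, Mcam, Itga7 and Pln had 0 UMIs. The 1 measured gene of the nerve sheath, Slc2a1, was lower (-1.75 ± 0.29), with Sox10 at 0 UMIs, and of the mesothelial list 1 was measured, with Msln, Upk3b and Lrrn4 at 0.

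Markers of epithelial, endothelial, adipocyte and red cells were near 0, while those of leukocytes were not in the myeloid and stromal library. The gate itself set Ptprc, Pecam1 and Cdh5 at 0 UMIs in members and in the other fibroblasts. Epithelial or carcinoma genes summed to 0 to 5.93 CPM in members, with Epcam, Krt8, Krt18 and Krt14 at 0 UMIs. Endothelial genes summed to 11.5 to 20.8 CPM, and adipocyte and red cell genes to 0. Leukocyte genes summed to 47.4 and 40.5 CPM in the stromal 67NR and LPS members and to 646 in the myeloid and stromal library, where the other fibroblasts held 876, against 240 and 194. Of the 5 leukocyte genes measured 2 were lower in members, Cd74 (-2.91 ± 1.58) and H2-Ab1 (-2.20 ± 1.06). The part of the leukocyte RNA in the values of the myeloid and stromal library was not tested.

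The series' title names Tlr4, the receptor for LPS, and an axis between fibroblasts and monocytes. Members carried Tlr4 at 53.4, 51.6 and 98 CPM, in 27 of 49 cells, against 85.3, 65 and 78 in the other fibroblasts (-0.23 ± 0.51). Its partners Ly96 (-0.51 ± 0.56) and Cd14 (-1.60 ± 0.77) were below 20 CPM in members, Cd14 with 0 UMIs in stromal 67NR. Of the Tlr4 list 4 of 14 genes were measured and 0 were called, with the LPS-binding Lbp at 2.11 ± 1.67. The monocyte attractants Ccl2 and Ccl7 stood at -1.27 ± 1.32 and -1.31 ± 1.41 with a spread between sums as large as the difference. Part of that spread rested on single cells. In the LPS sum they stood at 0.13 and -0.17, and 1 cell held 55.7% of the Ccl2 UMIs and 1 cell 41.2% of the Ccl7 UMIs. Of the 6 genes of that list 0 were called (median 0.37).

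Inflammatory genes were lower in part. Of 10 acute-phase and inflammatory genes 3 were lower, beside 1.62% of all genes measured. They were the pentraxin Ptx3 (-2.91 ± 1.09), Serpina3g (-2.04 ± 0.66) and the prostaglandin synthase Ptgs2 (-1.94 ± 0.55). Ptx3 stood at -3.51 ± 1.14 against Dpp4 and Pi16 cells, and at -1.60 ± 1.66, not called, against Ccl19 cells. Of 3 measured neutrophil attractants 1 was lower, Cxcl2 (-2.96 ± 1.56). Among other inflammatory lists, 0 of 18 NF-kB early targets (median -0.68), 0 of 12 type I interferon genes (0.18) and 0 of 9 MHC class I genes (0.16) were called. Cxcl12, a retention signal for CXCR4-bearing cells, stood at -1.29 ± 0.45 and Il33, an alarmin, at -0.10 ± 0.73. Fst, which binds activins, stood at -0.49 ± 0.35. Tnfsf8, the ligand of CD30, was at 11.9, 0 and 115 CPM in members against 37.8, 9.78 and 74.2 in others. Timp1, an inhibitor of metalloproteinases, was higher at 1.56 ± 0.37. Of 14 measured genes of amine and xenobiotic metabolism 3 were higher, Inmt (1.81 ± 1.07), Fmo1 (1.89 ± 0.24) and Fmo2 (2.32 ± 0.77). In the LPS sum the Inmt ratio was 1.11, and 1 cell held 65.4% of its UMIs. Inmt stood at 3.19 ± 0.90 against Dpp4 and Pi16 cells, and at 1.07 ± 1.40, not called, against Ccl19 cells.

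Conditions could be compared among members only between 67NR and LPS in the stromal library, with 1 sum each and therefore without a test. This comparison was chosen after the cell counts were seen. A gene needed 50 UMIs in the higher sum. Of 1242 such genes, 73 were more than 2-fold higher in 67NR members (5.88%) and 31 in LPS members (2.5%), in each case also without the cell that held most of the gene's UMIs. The rule's own genes account for 3 of those higher in 67NR. The median log2 ratio was 0.02. The brackets give exact conditional 95% intervals, which cover counting error only.

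LPS members held more RNA of MHC class I genes. H2-D1 and H2-K1, heavy chains of MHC class I, were at 11827 and 4403 CPM in LPS members and at 2713 and 1061 in 67NR members, log2 ratios of 67NR over LPS of -2.12 (-2.23 to -2.02) and -2.05 (-2.23 to -1.88). Their partner B2m was at 6028 against 1865 CPM (-1.69, -1.83 to -1.56). Of the 6 MHC class I genes measured 5 were called higher in LPS and 0 in 67NR, with a median of -1.44. The same ratio in the other fibroblasts had a median of -1.30, and whether the members differ from them was not tested. H2-Q6 (-3.29) and H2-Q7 (-2.01) are close relatives whose reads can be shared.

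Some interferon-induced genes lay on the same side. Ifitm1, a restriction factor against viral entry, was at 601 against 26.7 CPM (-4.49, -5.65 to -3.53) and stood at -0.69 in the other fibroblasts. Ifit1 (-2.90), Cxcl10, a ligand of Cxcr3 (-2.73), and Irf7 (-2.0) were also higher in LPS members, with 42.4% of the Cxcl10 UMIs in 1 cell. Of 6 type I interferon genes measured 2 were called, with a median of -0.93 beside -1.0 in the other fibroblasts. Complement factor B, Cfb, was at 1138 against 288 CPM (-1.98), and the adhesion gene Icam1 at 531 against 142 (-1.90). Lsamp (-2.27) and Opcml (-3.09), which encode neural adhesion proteins, had the opposite sign in the other fibroblasts, at 1.29 and 0.46. They were seen in 8 and 6 LPS members, with 35.1% and 41.8% of the UMIs in 1 cell. Lsamp was at 357 CPM in LPS and 74.1 in 67NR members, and Opcml at 203 and 23.7. The 67NR members of the myeloid and stromal library lay nearer to LPS, at 167 CPM for Lsamp and 150 for Opcml.

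Some matricellular and matrix genes were higher in 67NR members, while other matrix lists held few or none. Thbs1, a matricellular activator of TGF-beta, was at 1236 against 36.8 CPM (5.07, 4.18 to 6.14), with 53.2% of its UMIs in 1 cell and 4.09 without that cell. Ccn2 was at 640 against 55.3 (3.53, 2.78 to 4.40), Postn (periostin) at 1088 against 103 (3.40, 2.84 to 4.01) and Lox, which crosslinks collagen and elastin, at 507 against 81.1 (2.65, 2.00 to 3.36). Col6a5 stood at 4.11 and Piezo2 at 3.69. For Postn 1 cell held 43.1% of the 67NR UMIs. The same ratio in the other fibroblasts was 1.43 for Thbs1, 1.76 for Ccn2, 2.34 for Postn, 1.56 for Lox, 2.83 for Col6a5 and 1.06 for Piezo2. Whether the members differ from them was not tested. Of 6 matricellular genes measured 3 were called higher in 67NR (median 1.19, beside 0.75 in the other fibroblasts), of 10 metalloproteinases and inhibitors 3 (0.81 beside 0.27), and of 11 elastic fibre genes 2 (0.94 beside 0.18). Of 14 genes of fibrillar collagens and their assembly 1 was called (0.36 beside 0.73), of 8 small leucine-rich proteoglycans 0 (-0.30 beside -0.16) and of 8 basement membrane genes 0 (0.71 beside 0.02). Of the genes the rule used, Mgp was at 12234 CPM in 67NR and 2870 in LPS members, with 27.3% of the 67NR UMIs in 1 cell, and Cilp at 466 and 534. These are a description of how the cells were chosen.

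Some of the highest ratios rested on few cells. Cxcl2 (4.90) had 81.1% of its 67NR UMIs in 1 cell and UMIs in 3 of 24 members, and Ptx3 (3.63) had 73.4% in 1 cell and stood at 1.83 without it. The elastin gene Eln (2.49) had 60.1% in 1 cell. Emb (4.06) had 40.3% in 1 cell and stood at 3.42 without it. Rftn1 (3.84), Pcdh9 (3.83) and Hsd11b1, which regenerates active glucocorticoid (3.64), were seen in 9 to 16 members. All of these genes were also higher in 67NR than in LPS among the other fibroblasts, by 1.09 to 2.10 on the log2 scale, with Ptx3 at 1.76, Cxcl2 at 1.79 and Eln at 1.17.

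**Figure D4:**
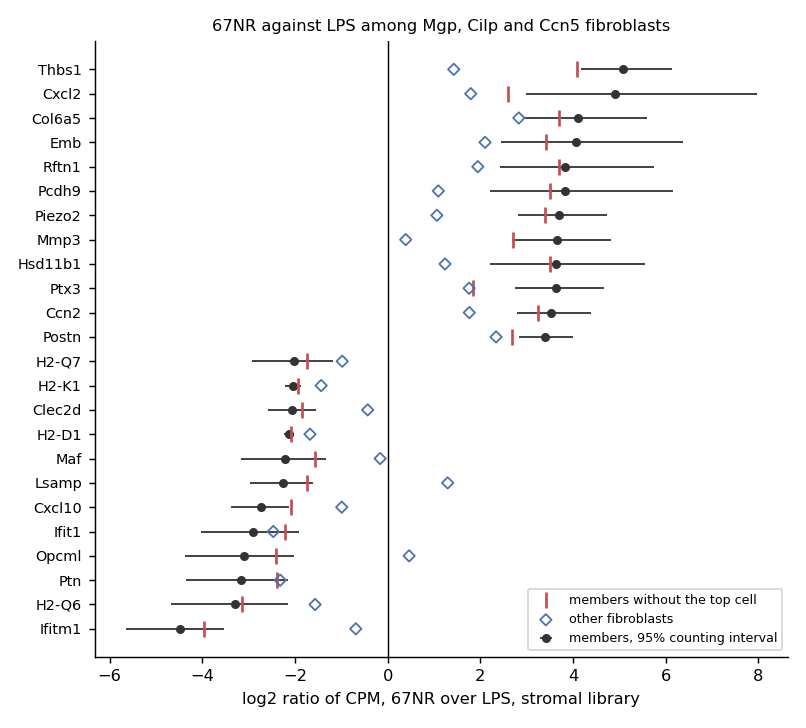
Log2 ratio of CPM, 67NR over LPS in the stromal library (horizontal axis), of the 12 highest and 12 lowest genes (vertical axis) among members, with 95% counting intervals, the value without the cell holding most UMIs (red ticks) and the same ratio in the other fibroblasts (open diamonds). Thbs1 leads at 5.07 and Ifitm1 is lowest at -4.49, and the diamonds mostly lie nearer to 0 on the same side, with Lsamp and Opcml across it.

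Tumour and naive nodes could be tested only over all fibroblast-gate cells, members included, as 6 sums of 4T1, 67NR and naive in both libraries. In such sums more cells of a type and more RNA per cell cannot be told apart. In 67NR over naive, 2 genes rose (0.0181% of 11033 tested) and 1 fell (0.00906%) at an adjusted p under 0.05 in edgeR's quasi-likelihood test with the library as a block. One of the 2 was Col8a1, at 1 UMI in each naive sum against 132 and 102 in the 67NR sums (0.63 and 0.73 against 25.3 and 36.1 CPM, log2 5.44, SE 0.49, adjusted p 0.0297, higher in both libraries). Members held 80 of the 132 and 90 of the 102 UMIs, 81 of them in 1 cell, and without the members Col8a1 fell below the minimum count and was not tested. Over 10 other settings its adjusted p ranged from 5.79e-20 to 0.279. The others were Il33 (1.54, SE 0.16, adjusted p 0.0431), at 1.52 without the members, and the gene F830016B08Rik (-1.77, SE 0.16, adjusted p 0.0297). All 3 calls were lost with the members left out, without the library block, and without the stromal 67NR sum, the stromal naive sum or the naive sum of the other library, where Col8a1 had an adjusted p of 0.0806, 0.213 and 0.279.

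Of the 25 leading genes, 22 were tested and 1 rose in 67NR, Col8a1, while 16 had a value above 0 and their median was 0.88 beside 0.00 for all genes. These genes were chosen as high in members, 34 of whose 55 cells are of 67NR, and nothing is read from that count. Mgp stood at 1.17 (SE 0.17, adjusted p 0.0554), with 568 and 275 CPM in naive against 1210 and 614 in 67NR gate cells. Cilp was at 2.44 (SE 0.43, adjusted p 0.0775), Ccn2 at 3.06 (SE 0.77, adjusted p 0.136) and Itgbl1 at 2.02 (SE 0.54, adjusted p 0.159). Of the Mgp UMIs in the 67NR gate cells, members held 4126 of 6323 in the stromal and 1152 of 1738 in the myeloid and stromal library. In 4T1 over naive 0 genes passed (0% in either direction, 1328 at an unadjusted p under 0.05, and 53 higher and 19 lower by DESeq2), and 11 of the 22 leading genes were above 0 (median 0.05), with Mgp at -0.02 (SE 0.17) and Ccn2 at 2.39 (SE 0.83, adjusted p 0.327). With 2 residual degrees of freedom these p-values measure only the spread between 2 libraries.

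**Figure D5:**
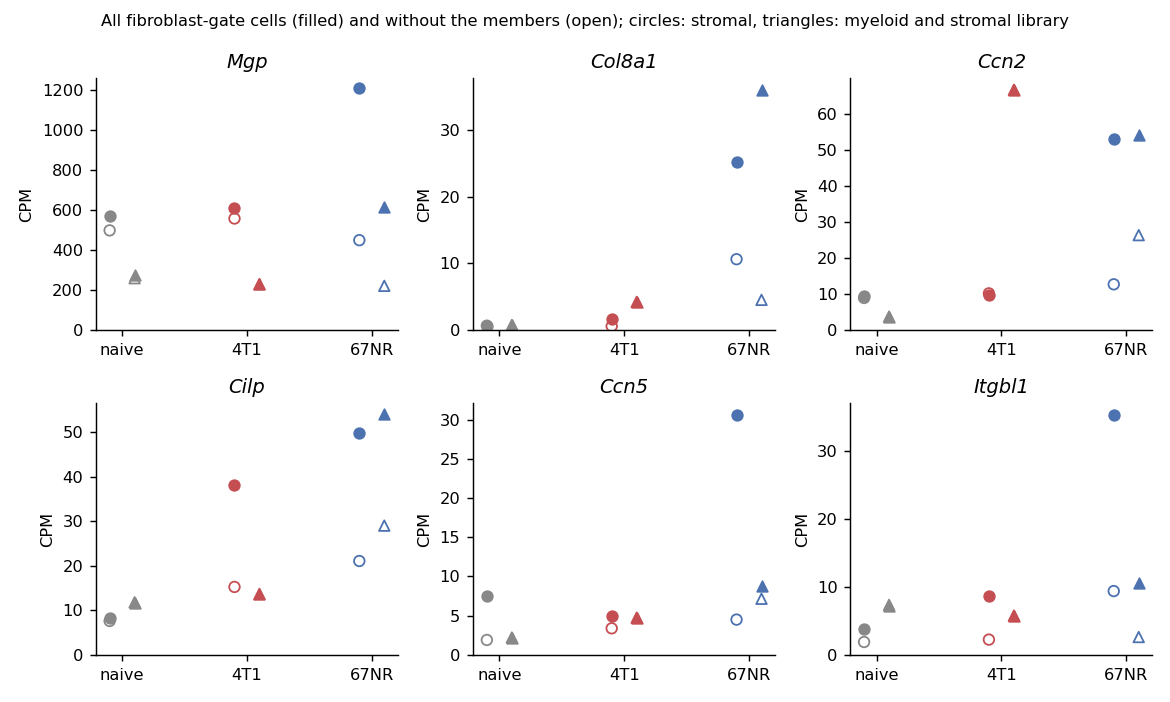
CPM (vertical axes) of Mgp, Col8a1, Ccn2, Cilp, Ccn5 and Itgbl1 over all fibroblast-gate cells (filled) and over the gate without the members (open) in naive, 4T1 and 67NR (horizontal axis), with circles for the stromal and triangles for the myeloid and stromal library. Open symbols lie lower where members hold the UMIs, which for the rule's genes follows from how members were chosen. Ccn2 is highest in the 4T1 sum of the myeloid and stromal library, at 66.8 CPM.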

How the data were processed

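The authors deposited UMI counts per gene and cell of 10x Genomics single-cell libraries, not normalized. The submitters' processing notes name Cell Ranger 7.0 and mm10, and neither the annotation nor the use of intronic reads is given in the sources used here. Cells needed 500 UMIs, at most 10% mitochondrial UMIs and a hashtag of 10 counts that was 3 times the next, and no doublet caller was run. The deposited hashtag named CTRL was taken as naive. The members, gene lists and markers were chosen with earlier results of these data known.

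CPM is a gene's UMIs over those of a sum on a scale of 1000000, and a sum needed 10 cells. The edgeR tests planned on member sums, and the tests of members against other fibroblasts across conditions, could not be fitted, because 4T1 gave 4 and 0 and naive 1 and 1 members. The test over all fibroblast-gate cells was added after the data were seen (edgeR 4.0.16, glmQLFit and glmQLFTest, filterByExpr, TMM, library as a block, Benjamini-Hochberg over 11033 genes, biological coefficient of variation 0.157, R 4.3.3), as was the comparison of 67NR with LPS members. In simulated 67NR and naive counts of 10744 genes, 56% of changes of log2 1 and 98% of those of log2 2 were called, with 3 false calls. The simulation gave every gene the same spread, set below the fitted coefficient, and no difference between libraries. Only genes above a minimum expected count were changed. Whether these rates hold for the deposited counts, or for genes with few UMIs such as Col8a1, was not tested. A gene with 0 UMIs in a sum was set at 3 UMIs, and its ratio is a bound.

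Named genes were the 25 highest and 15 lowest ratios of one sign in all 3 sums with a UMI in 20% of the cells of the higher population, the 12 highest and 12 lowest of 67NR over LPS, all called and 2 to 4 other members of each list described, and Mgp, Cilp, Ccn5, Itgbl1, Fhl2, Tlr4, Cd14, Ly96, Ccl2, Ccl7, Cxcl12, Ptx3, Timp1, Inmt, Fst, Tnfsf8 and Il33. Those without a value in the text are in the plots or not reported here. Alternatives changed the cell filters, the marker limits, thinning, the gene filter, scaling, tool (DESeq2 1.42.0), the block, and left out each sum or all members.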

Additional observations from a re-analysis of the deposited data

How the results depend on the processing

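With 55 members, few cells decide many values, and the smallest sum held 10 cells. The share of members moved with the depth of the cells and with the markers. Thinned to 2000 UMIs it was 0.88% in 4T1, 2.87% in 67NR and 0.45% in LPS of the stromal library, and 0.56% in 67NR and 0% in naive of the other, where it was also 0% in naive at 8000 UMIs and with a marker limit of 5 UMIs. With Mgp alone it was 15.9%, 13.5%, 22.1% and 16.4% in 4T1, 67NR, LPS and naive, and 11% and 10.4% in 67NR and naive of the myeloid and stromal library. In the other 57 settings of a share the value stayed within the counting interval, which is wide. With limits of 2 UMIs, naive and 67NR stood at 4.72% and 6.59% in the myeloid and stromal library, and at 2.34% and 7.89% in the stromal one. A hashtag ratio of 10 gave 1.79% and 3.49% in the myeloid and stromal library, and 1.27% and 7.24% in the stromal one. Removing cells with a second hashtag at 10 counts left 0 members and gave no value.

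Against the other fibroblasts, 151 genes were higher and 132 lower with no filter on low values, 30 were lower after thinning to 2000 UMIs, and 35 were higher without the 13 Mgp-rich members, an alternative added after the data were seen. Leaving out each sum in turn, with 2 sums left, gave 80 to 132 higher and 110 to 153 lower, the most without the LPS sum. Thinning kept 19 of the 63 higher genes and 16 of the 84 lower ones, and leaving out members with Dpp4 and Pi16 kept 30 and 32. That last setting left sums of 5, 7 and 6 cells, below the minimum of 10. A hashtag ratio of 10 left 3 members in the 67NR sum of the myeloid and stromal library, a marker limit of 5 UMIs 5, the sum without Mgp-rich cells 7, and the settings of 5% mitochondrial UMIs and of no Ccl19 UMI 9.

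The fit over all fibroblast-gate cells, added after the data were seen, was not stable. DESeq2 called 53 genes higher and 19 lower in 4T1 and 115 and 42 in 67NR, and no gene filter gave 395, 230, 554 and 272. Without the replicate block on the library, 0 genes passed in either direction in 67NR (888 at an unadjusted p under 0.05), as was the case with the members left out (1529). Leaving out each sum gave 0 to 271 genes higher and 0 to 165 lower in 4T1, and 0 to 415 higher and 0 to 238 lower in 67NR, with 0 in 67NR without its stromal sum or either naive sum. The lone sum of a condition was then assumed to vary like the others. Values near 0 changed sign: Mgp in 4T1 was at 0.0055 with no gene filter, 0.022 without the block, 0.036 without the members and -0.21 to 0.14 without 1 sum, Ccn5 in 4T1 at -0.0043 without the block and -0.60 to 1.16 without 1 sum, and Itgbl1 in 4T1 at -0.10 without the members and -0.70 to 1.53 without 1 sum. Mgp in 67NR was at -0.17 without the members, which were chosen for their Mgp UMIs. In the stromal library members held 4126 of 6323 Mgp UMIs in 67NR and 119 of 904 in naive. In the myeloid and stromal library they held 1152 of 1738 and 28 of 379. The cause of these changes was not tested.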
